A study of Mus musculus with 8 samples.

Results

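The genes described here are 142 solute carrier genes, chosen from the 24454 gene rows of a count table of sorted mouse yolk sac cells. A row was taken when its symbol had the form Slc, a number, the letter a and a number, and when its counts over all 8 libraries came to 200 or more. There were 331 such symbols in the table. Of these, 184 were under the limit, 54 of them with no count in any library, and 5 well known red cell carriers were left out by name: Slc4a1, Slc14a1, Slc11a2, Slc25a37 and Slc40a1. The summed count chose the members, so it is given as a description only. Members with no count in a population reached the limit through the other libraries, so their differences are partly set by the choice. The lowest members were Slc25a14 with 210 counts and Slc15a4 with 213, and the highest rows outside were Slc29a3 with 196 and Slc28a1 with 195. The 142 members belong to 42 families and were read in 10 substrate classes.

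Every library was made from yolk sac of stage E11.5 of C57BL/6 mice carrying miR144-451+/GFP, in which GFP marks 1 allele of the miR144/451 locus, a microRNA cluster known for its expression in erythroid cells. All 3 populations carry that allele, so no group with an unmodified locus was measured. Endothelial libraries (3 pools of 25 cells) came from cells with VE-cadherin and without GFP, erythroid libraries (3 pools of 25 cells) from cells with GFP and without VE-cadherin, and double positive libraries (2 pools of 24 cells) from cells with both. The labels do not say that pools came from separate embryos, so the p-values below measure the spread between pools, which may be technical.

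Solute carriers are membrane proteins that move nutrients, ions, cofactors and metabolites into cells and between organelles, and many work by exchange or with a sodium or proton gradient. Close relatives often carry the same substrate in different cell types. The yolk sac is known as the first site of red cell formation, whose cells import iron, glycine and amino acids for heme and globin, and its outer layer, the visceral endoderm, absorbs nutrients for the embryo in the way that gut and kidney epithelia do.

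Libraries held 3723128 to 7618444 counts. Globin genes took 54.5% to 56.5% of the counts of erythroid libraries, 8.86% and 14.0% of those of double positive libraries and under 0.01% of those of endothelial libraries. Values below are CPM, the read count per 1e6 counts of an effective library size (its total times edgeR's TMM factor), given in the order of replicates 1, 2 and 3 (endothelial), 4, 5 and 6 (erythroid) and 7 and 8 (double positive). The marker check followed the labels for the erythroid and endothelial gates: 10 endothelial markers summed to 4309 to 6014 CPM in endothelial libraries, and 9 of the 10 had no count in the erythroid ones. Endothelial libraries also held all 12 macrophage markers, with sums of 1399, 3485 and 1510 CPM, while all 12 were at 0 in erythroid libraries. Double positive libraries held all 10 endothelial markers (546 and 761 CPM) and all 10 erythroid markers, and also 14 of 14 visceral endoderm markers, whose sums were 90608 and 90673 CPM against 85.8 to 141 in endothelial and 10.1 to 22.2 in erythroid libraries. Among these, Afp was at 53148 and 55394 CPM and the lipid carrier gene Apoa1 at 13667 and 12896 CPM in double positive libraries, while Alb, Lrp2, Hnf4a and Foxa2 had no count in any of the other 6 libraries. In edgeR's test 13 of the 14 were higher in double positive than in endothelial libraries. Sox17 was lower, at 55.7, 61.8 and 111 CPM in endothelial and 9.55 and 7.73 in double positive libraries. It held most of the endothelial sum. In pools of cells, fewer cells of a type and less RNA per cell cannot be told apart.

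Members took 0.817% to 0.829% of the counts in endothelial libraries, 0.397% to 0.426% in erythroid libraries and 0.965% and 0.829% in double positive libraries. Outside globin the erythroid share was 0.893% to 0.972%, so erythroid libraries were lowest by share of all counts and not lowest on effective library sizes. Endothelial libraries detected 122 to 124 members, erythroid libraries 96 to 100, and both double positive libraries detected all 142. A group of 34 members had no count in any erythroid library and 14 had none in any endothelial library. Compared per kilobase of exon, the most abundant member was Slc25a5, an exchanger of ADP for ATP in the mitochondrial inner membrane, in endothelial (334 CPM per kilobase) and double positive libraries (552). In erythroid libraries it was Slc25a39, a mitochondrial glutathione carrier, at 487 CPM per kilobase, with Slc25a5 next at 473.

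**Figure D1:**
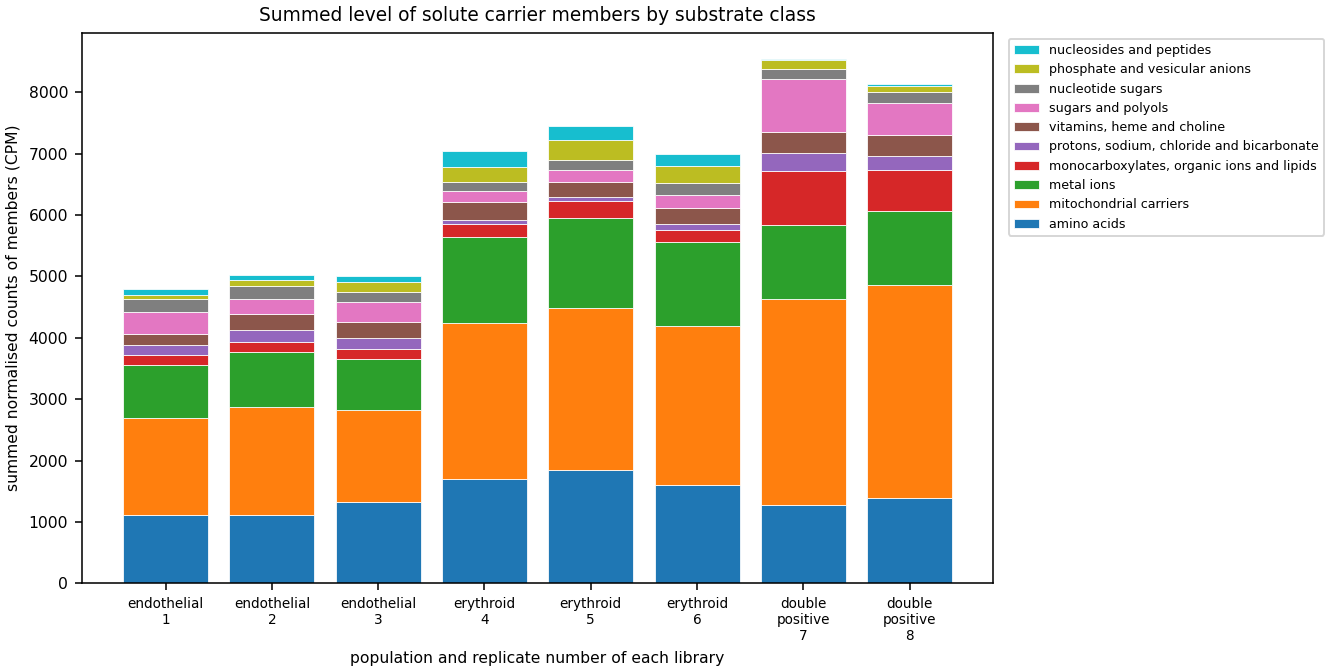
Summed CPM (vertical axis, from 0) of the members of each substrate class in each of the 8 libraries (horizontal axis). Members summed to 4788 to 5022 CPM in endothelial libraries, to 6997 to 7444 CPM in erythroid ones and to 8545 and 8128 CPM in double positive ones, and mitochondrial carriers were the largest block in each library.

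By class, mitochondrial carriers summed to 1609 ± 133 CPM in endothelial (SD, n = 3), 2588 ± 49.3 in erythroid (n = 3) and 3409 ± 92.2 in double positive libraries (n = 2). Metal ion carriers were at 866 ± 32.1, 1410 ± 50.6 and 1205 ± 1.85 CPM in that order, and amino acid carriers at 1184 ± 119, 1718 ± 127 and 1335 ± 72.3. Carriers of monocarboxylates, organic ions and lipids were at 166 ± 2.77, 233 ± 44.5 and 776 ± 156 CPM. The groups of libraries did not overlap in any of these classes except for amino acids, where the highest endothelial library (1322 CPM) lay between the 2 double positive ones (1284 and 1386). Most of the erythroid metal ion sum came from Slc39a8, whose mean was 939 CPM there against 36.1 CPM in endothelial libraries. Of the 22 members of that class, edgeR called 8 lower and 3 higher in erythroid than in endothelial libraries. The higher erythroid sum thus does not describe the class as a whole. Class sums are given on effective library sizes only. The red cell carriers left out by name, Slc4a1, Slc14a1, Slc11a2, Slc25a37 and Slc40a1, are in no class sum or class count given here. All 5 reached the count limit, so class values do not describe every carrier of erythroid cells. The members that carry protons, sodium, chloride and bicarbonate, without Slc4a1, were lowest in erythroid libraries. They were at 62.2, 67.8 and 92.5 CPM against 157 to 194 in endothelial libraries. Sugar and polyol carriers followed the same order, with 167 to 208 CPM in erythroid, 248 to 344 in endothelial and 856 and 529 in double positive libraries.

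The comparison of erythroid with endothelial libraries showed a small group of carriers at high level in erythroid cells and a wider group lower or without counts there. In edgeR's quasi-likelihood test, 23 of 142 members were higher in erythroid libraries (16.2%, against 14.4% of all 12136 genes tested) and 42 were lower (29.6%, against 26.6%). The libraries of both groups did not overlap for 77 members, where 50.8% of all genes did not. The median log2 difference of the members was -0.53, and that of all genes tested was -0.36. These shares are near those of all genes, which passed a lower count limit than the members. Scaled by library size alone, the median of all genes moved to -1.90 and the counts of members became 11 higher and 84 lower. The sign of 5 members called higher turned under that scaling: Slc29a1, Slc43a3, Slc25a5, Slc25a46 and Slc25a51.

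**Figure D2:**
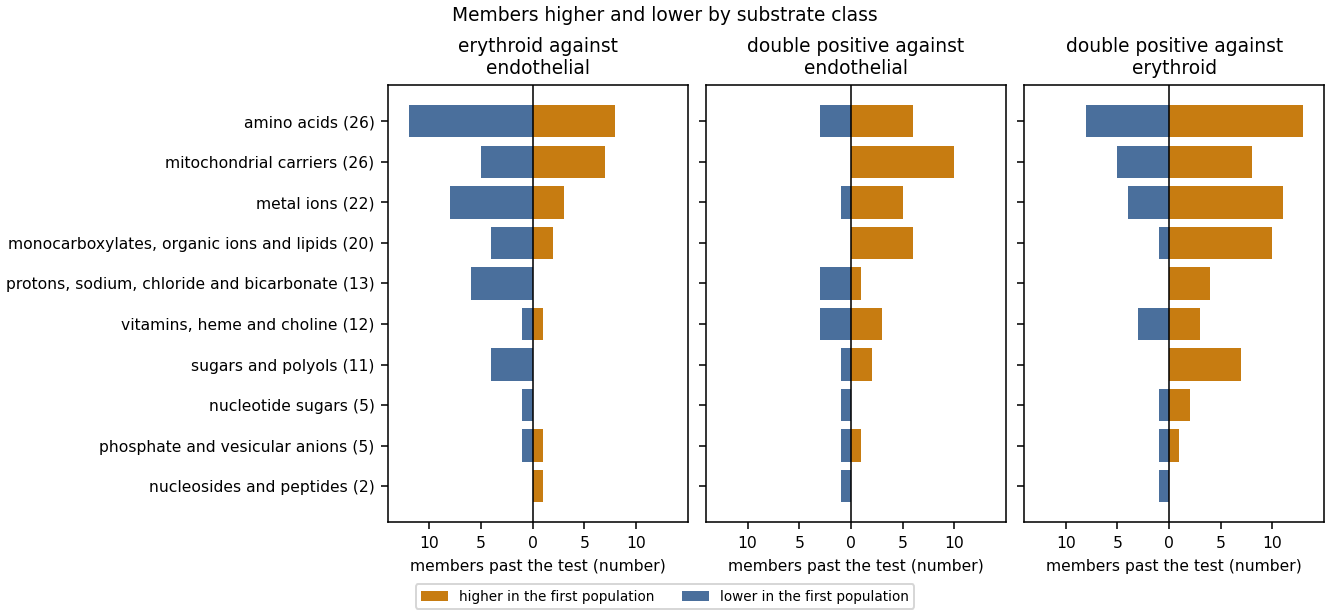
Number of members (horizontal axis, from 0 to each side) past edgeR's test in each substrate class, with class sizes in brackets, for the 3 comparisons. Bars to the right count members higher in the first population and bars to the left those lower; sugar and polyol carriers had 4 lower and 0 higher in erythroid against endothelial libraries, and 7 higher and 0 lower in double positive against erythroid libraries.

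Among 26 amino acid carriers, 8 were higher and 12 lower in erythroid libraries (4 and 15 when scaled by library size alone). The counts of this and the other classes stand beside 14.4% higher and 26.6% lower among all genes tested. Slc38a5, which moves glutamine, serine and glycine with sodium (chrX:8271133-8280179, plus strand, GRCm38), had no count in any endothelial library. It was at 397, 405 and 321 CPM in erythroid libraries and at 19.3 and 24.6 in double positive ones. It was at least 2504-fold higher in erythroid than in endothelial libraries, taking 3 counts over the endothelial group as the floor (edgeR adjusted p = 1.52e-06). Slc6a9, the glycine carrier GlyT1, was likewise at 0 in endothelial libraries, at 130, 113 and 119 CPM in erythroid and at 2.48 and 4.07 in double positive ones. Its erythroid level was at least 810-fold the endothelial one (edgeR adjusted p = 7.27e-06).

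Slc43a1, a carrier of large neutral amino acids known as LAT3, was at 1.72, 7.16 and 5.0 CPM in endothelial and at 332, 355 and 292 CPM in erythroid libraries. That was a log2 difference of 6.16 ± 0.48 (SE, edgeR adjusted p = 2.05e-05), and the groups were far apart. The other members of its family parted: Slc43a2, which carries the same kind of substrate, was at 45.8, 20.8 and 16.3 CPM in endothelial libraries and at 0 in erythroid ones. Slc43a3, counted here by its family although it is known as a purine nucleobase carrier, was at 162, 144 and 171 CPM in endothelial and at 358, 318 and 317 in erythroid libraries. Its log2 difference was 1.06 ± 0.14 (edgeR adjusted p = 3.26e-04), but -0.49 when scaled by library size alone.

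Both exchangers of small neutral amino acids, Slc1a4 (ASCT1) and Slc1a5 (ASCT2), rose in erythroid libraries. Slc1a4 was at 3.43, 11.4 and 6.94 CPM in endothelial and at 14.2, 87.8 and 64.8 CPM in erythroid libraries, where replicate 4 stood well under replicates 5 and 6. Its log2 difference was 2.94 ± 0.71 (edgeR adjusted p = 0.00937), and Slc1a5 differed by 2.28 ± 0.43 (adjusted p = 0.00253). Scaled by library size alone neither passed, with adjusted p of 0.114 and 0.169.

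Slc3a2 is the heavy chain that brings several Slc7 light chains to the cell surface, and the light chain sets which amino acids pass. Slc3a2 itself was at 120, 201 and 144 CPM in endothelial libraries, at 181, 229 and 154 CPM in erythroid ones and at 229 and 320 CPM in double positive ones, and passed in no comparison (edgeR adjusted p = 0.393 for erythroid against endothelial). Its light chains were split between the populations. Slc7a5, the LAT1 chain, was at 0.792, 3.25 and 0.645 CPM in endothelial and at 24.4, 27.9 and 13.0 in erythroid libraries, a log2 difference of 3.79 ± 0.76 (edgeR adjusted p = 0.00387). Slc7a8, the LAT2 chain, was at 18.5, 91.9 and 47.0 CPM in endothelial libraries, at 0 in erythroid and at 51.7 and 60.5 in double positive ones. Slc7a7, the chain that releases cationic amino acids, was at 42.4, 31.4 and 62.9 CPM in endothelial libraries, at 0, 0 and 5.86 in erythroid ones and at 121 and 153 in double positive ones. Slc7a6 was higher in erythroid (31.2, 45.6 and 35.8 CPM) than in endothelial libraries (1.72, 22.8 and 13.9) without overlap, but did not pass (edgeR adjusted p = 0.124).

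The Slc38 family carries small neutral amino acids, and 6 of its 8 members fell in erythroid libraries while Slc38a5 alone rose. Slc38a2, which cells raise when amino acids are short, was the highest of the class per kilobase in endothelial libraries. It was at 382, 198 and 500 CPM there and at 80.1, 67.2 and 103 in erythroid libraries, a fall by 2.11 ± 0.32 on the log2 scale (edgeR adjusted p = 8.65e-04). Slc38a4 was at 182, 131 and 98.1 CPM in endothelial libraries and at 0 in erythroid ones, so at least 491-fold lower there (edgeR adjusted p = 8.17e-05). Slc38a1 and Slc38a7, the latter a lysosomal carrier, were also at 0 in all erythroid libraries, at least 115-fold and 112-fold lower than in endothelial libraries.

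**Figure D3:**
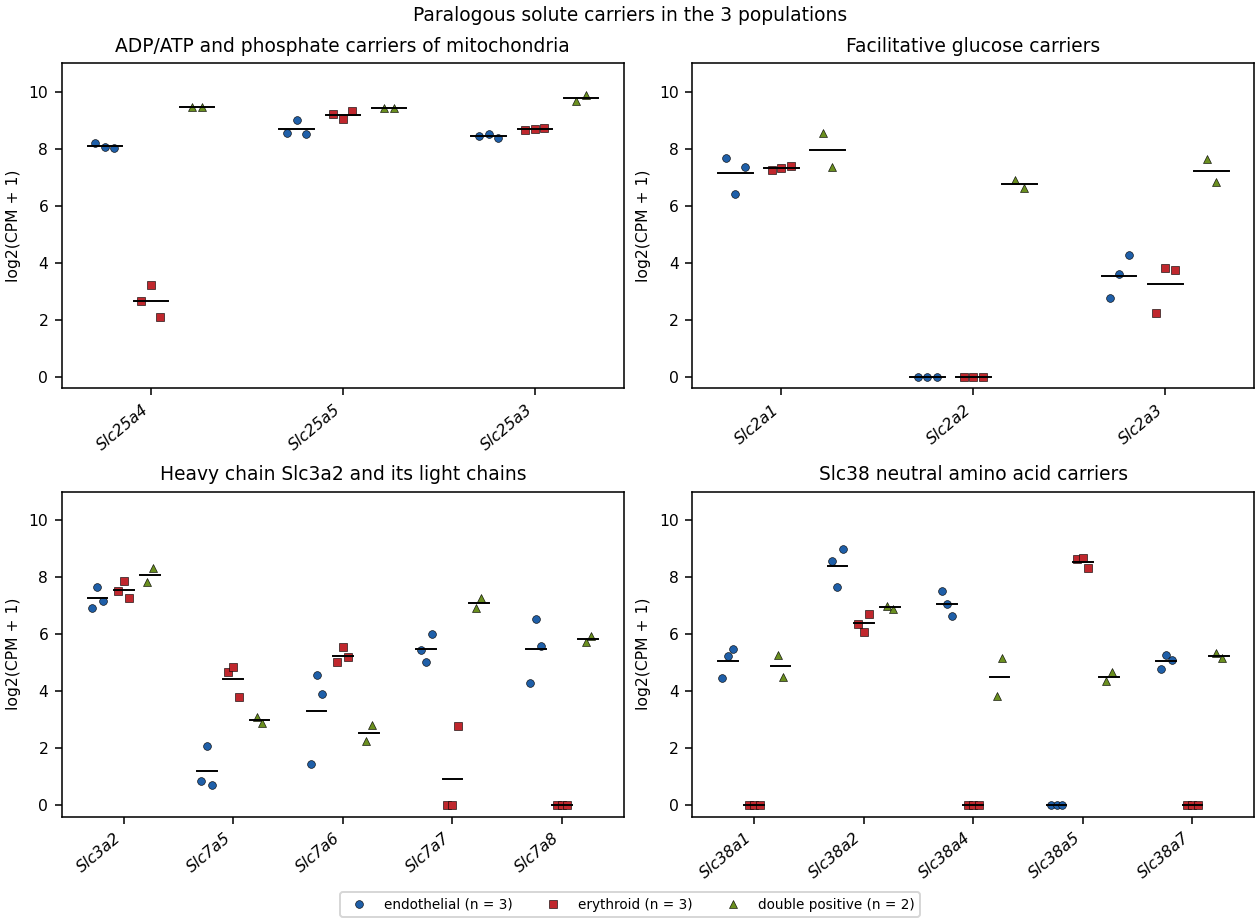
Level of related carriers in each library as log2(CPM + 1), for ADP/ATP and phosphate carriers, glucose carriers, Slc3a2 with its light chains and the Slc38 family. Points are libraries, with bars at the mean of each population. Slc25a4 and Slc38a5 differ in opposite directions between endothelial and erythroid libraries. Slc38a5 was at 0 in the 3 endothelial libraries and Slc25a4 at 3.26 to 8.24 CPM in the 3 erythroid ones.

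Mitochondrial carriers had 7 members higher and 5 lower in erythroid libraries (3 and 15 when scaled by library size alone). The pair that exchanges ADP and ATP was uneven. Slc25a4, the isoform known from heart and muscle, was at 295, 263 and 259 CPM in endothelial, at 5.35, 8.24 and 3.26 in erythroid and at 712 and 712 in double positive libraries. Slc25a5, the isoform known from dividing cells, was at 373, 509 and 362 CPM, then 597, 531 and 632, then 687 and 681. Slc25a4 fell by 5.6 ± 0.27 on the log2 scale between endothelial and erythroid libraries (edgeR adjusted p = 1.95e-06), and it fell under each scaling. Slc25a5 rose by 0.50 ± 0.16 (adjusted p = 0.0295), but it fell by 1.04 when scaled by library size alone and lost its call without any one of endothelial replicates 1 and 3 and erythroid replicates 4, 5 and 6 (adjusted p 0.052 to 0.12). Reads that these closely related genes or their processed copies share could have been split by the counting.

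The largest erythroid rises among mitochondrial carriers were those of Slc25a21, Slc25a38 and Slc25a39. Slc25a38, which brings glycine into mitochondria for the first step of heme synthesis, was at 3.30, 9.76 and 8.39 CPM in endothelial and at 173, 171 and 204 in erythroid libraries (log2 difference 4.68 ± 0.38, edgeR adjusted p = 2.53e-05). Slc25a39 was at 100, 102 and 102 CPM and at 759, 865 and 841 (3.02 ± 0.12, adjusted p = 8.85e-07), with libraries of each group close to each other. Slc25a21, a carrier of oxodicarboxylates from lysine breakdown, was at 0 in endothelial libraries and at 115, 127 and 76.5 CPM in erythroid ones. All 3 remained higher when scaled by library size alone, by 3.14, 1.47 and 11.23 on the log2 scale.

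Of 22 metal ion carriers, 8 were lower in erythroid libraries, 3 were higher and 11 did not pass (15 lower and 2 higher when scaled by library size alone). One of the 3, Slc39a8, was the highest of the class per kilobase there. Slc39a8, an importer of zinc, manganese and iron, was at 40.3, 41.7 and 26.5 CPM in endothelial and at 918, 971 and 927 CPM in erythroid libraries. Its log2 difference was 4.70 ± 0.21 (edgeR adjusted p = 1.52e-06). Slc30a10, a manganese exporter, was at 0 in endothelial libraries and at 136, 159 and 171 CPM in erythroid ones, at least 1017-fold higher (adjusted p = 3.17e-06). The zinc importers Slc39a1 and Slc39a10 were lower in erythroid libraries instead. Slc39a1 was at 268, 238 and 220 CPM in endothelial and at 59.1, 46.9 and 41.4 in erythroid libraries (log2 difference -2.30 ± 0.19, edgeR adjusted p = 2.68e-05). Slc39a10 was at 55.0, 23.1 and 52.9 CPM and at 0. Slc31a1, the copper importer, was at 94.0, 116 and 199 CPM in endothelial and at 38.9, 44.4 and 52.8 in erythroid libraries (log2 difference -1.59 ± 0.28, edgeR adjusted p = 0.00199).

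Some single members of the smaller classes were high in erythroid libraries. Slc20a1, the sodium-phosphate carrier that also serves as a retrovirus receptor, was at 23.0, 27.5 and 16.8 CPM in endothelial and at 210, 286 and 231 in erythroid libraries (log2 difference 3.43 ± 0.29, edgeR adjusted p = 3.46e-05). Slc22a4, known for carrying the antioxidant ergothioneine, was at 0, 0.651 and 2.42 CPM and at 89.6, 85.2 and 77.2. Slc48a1, which moves heme out of endosomes and lysosomes, was at 29.7, 46.9 and 33.4 CPM and at 170, 128 and 112, a log2 difference of 1.90 ± 0.25 (edgeR adjusted p = 4.15e-04) that did not pass when scaled by library size alone (0.35, adjusted p = 0.257). Slc29a1, the equilibrative nucleoside carrier ENT1, was at 79.1, 79.7 and 90.0 CPM and at 261, 217 and 188 (1.42 ± 0.17, adjusted p = 2.51e-04), but its difference was -0.12 when scaled by library size alone.

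Sugar carriers gave 4 falls and no rise in erythroid libraries: Slc5a3, Slc37a1, Slc37a2 and Slc45a4. Slc5a3, which takes up the osmolyte inositol, was at 27.5, 24.4 and 31.1 CPM in endothelial libraries and at 0 in all erythroid ones, and Slc37a1 was at 25.6, 14.5 and 24.0 CPM and at 0. The glucose carrier Slc2a1 was the highest of the class per kilobase in each population. It was at 202, 84.0 and 162 CPM in endothelial and at 151, 159 and 169 in erythroid libraries, which overlapped (edgeR adjusted p = 0.893). Its difference of 0.09 ± 0.36 changed sign when scaled by library size alone (-1.46). Slc16a1, a lactate carrier, was at 24.8, 38.1 and 48.9 CPM and at 62.6, 123 and 23.4 and did not pass either (adjusted p = 0.193). The folate carrier Slc19a1 was at 13.1, 26.5 and 10.6 CPM against 9.08, 0 and 10.4 (adjusted p = 0.335). The choline carrier Slc44a2 was at 71.8, 88.2 and 129 CPM and fell to 22.1, 19.0 and 7.82 in erythroid libraries (log2 difference -2.55 ± 0.45, edgeR adjusted p = 0.00199). Among proton and sodium carriers 6 of 13 fell and 0 rose, with 1 rise by limma-voom. Slc4a1, left out by name, is not among the 13. The endosomal exchanger Slc9a9 was at 29.7, 58.1 and 21.9 CPM and at 0.

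**Figure D4:**
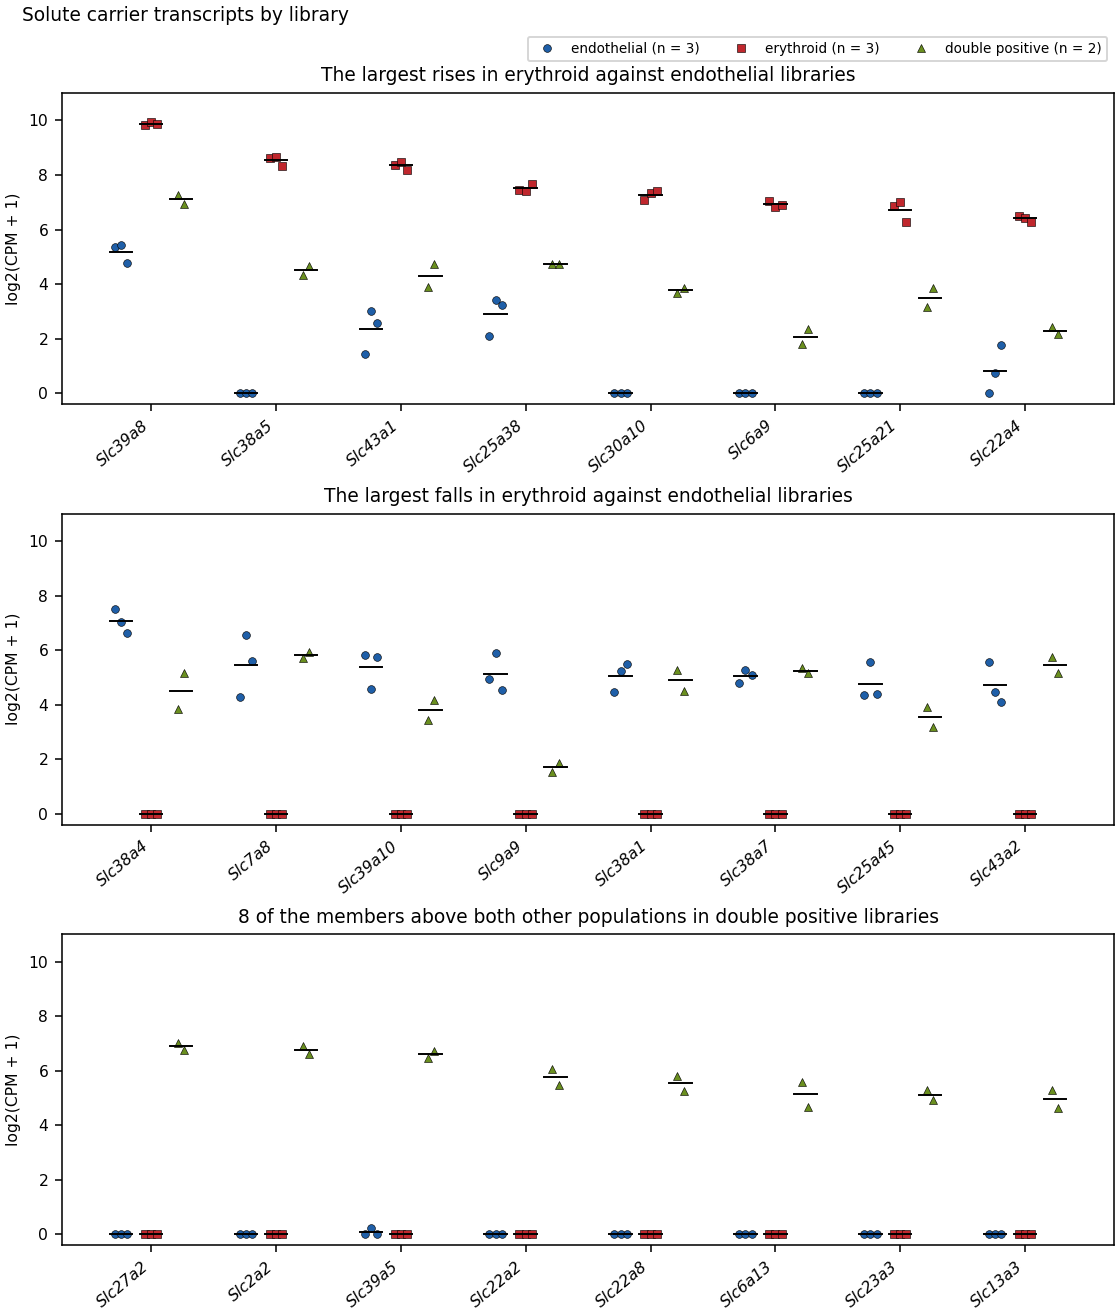
Level of named members in each library as log2(CPM + 1), one column per gene; points are libraries and bars the mean of each population. The top panel holds the 8 largest rises and the middle panel the 8 largest falls in erythroid against endothelial libraries, where every erythroid point of the middle panel lies at 0; the bottom panel holds 8 members above both other populations in double positive libraries, with all erythroid points at 0.

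Macrophage markers differed between the endothelial libraries and were highest in replicate 2 (3485 CPM against 1399 and 1510). Some endothelial-side members had their highest value in the same library. Slc11a1, a metal carrier of phagocyte vesicles, was at 18.1, 43.4 and 3.87 CPM, and Slc37a2 was at 7.0, 45.2 and 15 CPM. Slc7a8 was at 18.5, 91.9 and 47.0 CPM and Slc9a9 at 29.7, 58.1 and 21.9 CPM. Other members were lowest there, such as Slc38a2 at 198 CPM against 382 and 500. These genes were set side by side after their values were seen, and the part of macrophage RNA in their levels was not tested.

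Promoter windows were read for the 18 members higher in erythroid than in both other populations, a set chosen by that call. RefSeq promoter windows (GRCm38.p6, from 250 bases before to 50 after a start) matched 110 of the 142 members with 153 windows, and 13 of the 18 with 25 windows. Each window was searched on both strands for GATAA, the core bound by GATA factors, for CACCC, the core bound by KLF factors, for CACGTG, the E-box, and for TGATGNAA, the ATF4 element. The motifs GATAA and CACCC both stood in 5 of the 25 windows, in 11.1% of the members' windows and in 12.6% of all 32851 windows. They both stood in 5 of 24 windows of the members above both other populations in double positive libraries, so the pair was no more frequent in the erythroid set than in that one. CACCC stood in 84.0% of the 25 windows, 69.9% of the members' windows and 57.5% of all windows, and GATAA in 24.0%, 19.6% and 25.4%. CACGTG stood in 28.0%, 16.3% and 7.15% in that order, and TGATGNAA in 4.0%, 3.92% and 3.97%. Several windows can belong to one gene and share bases, and a match is a description of letters only.

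The 3 windows with both motifs that belong to the largest erythroid rises are shown without the bases after the start. Each is written 5′ to 3′ on the plus strand, on which each gene lies, with every GATAA or CACCC match in capitals; TTATC and GGGTG are the same motifs read on the other strand. They lie at chr1:185454598-185454847 (Slc30a10), chr3:135825407-135825656 (Slc39a8) and chr4:117855297-117855546 (Slc6a9), hold 1 GATAA match each and hold 4, 1 and 2 CACCC matches, with no overlap between matches.
Slc30a10: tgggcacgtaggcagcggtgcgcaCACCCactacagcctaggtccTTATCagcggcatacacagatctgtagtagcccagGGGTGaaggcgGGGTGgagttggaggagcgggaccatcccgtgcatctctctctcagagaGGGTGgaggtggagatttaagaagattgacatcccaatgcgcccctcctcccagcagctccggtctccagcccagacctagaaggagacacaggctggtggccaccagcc
Slc39a8: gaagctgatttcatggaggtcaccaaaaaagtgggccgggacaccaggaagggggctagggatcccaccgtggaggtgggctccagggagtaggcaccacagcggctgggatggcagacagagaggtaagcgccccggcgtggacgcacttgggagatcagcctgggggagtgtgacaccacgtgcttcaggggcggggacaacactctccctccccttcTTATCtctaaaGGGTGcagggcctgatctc
Slc6a9: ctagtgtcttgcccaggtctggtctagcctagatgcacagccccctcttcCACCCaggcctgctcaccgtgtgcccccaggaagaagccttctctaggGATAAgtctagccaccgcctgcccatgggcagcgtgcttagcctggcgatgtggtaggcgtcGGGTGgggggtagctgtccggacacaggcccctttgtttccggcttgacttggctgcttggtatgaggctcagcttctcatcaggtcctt

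The double positive libraries held transcripts of every member, and the comparison with both single-gate populations asks whether these levels lie between theirs. The means of 48 members lay between those of the other 2 populations, 72 lay above both and 22 below both. The same counts over all genes are not given here, and double positive libraries detected the most genes of any kind. These counts are therefore not read as a trait of the members. Against endothelial libraries, 34 members were higher (23.9%, against 14.6% of all genes tested) and 14 were lower (9.86%, against 6.92%) in edgeR's test, with no overlap for 99 members (57.5% of all genes). Against erythroid libraries, 59 were higher (41.5%, against 31.5%) and 24 lower (16.9%, against 10.6%), with no overlap for 118 members (67.5% of all genes). Members' median log2 differences were 0.64 and 1.56, beside 0.06 and 0.71 for all genes. Scaled by library size alone the members split into 28 higher and 22 lower against endothelial and 86 and 14 against erythroid libraries. The 2 comparisons share the double positive libraries, so they do not count as separate evidence. Members had to reach 200 counts over the 8 libraries, while all genes tested passed a lower limit, edgeR's filter at a minimum count of 10. In addition, 14 members had no count in any endothelial library and 34 had none in any erythroid one. Their rises are partly set by the choice. Shares of members above those of all genes are therefore not read as a trait of the members. Without double positive replicate 7 or 8 the 14 lower members became 4 or 5, and the 24 became 15 or 15.

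In all, 23 members were above both populations in the test (9.33% of all genes tested were) and 5 were below both (1.6%). Without double positive replicate 7 these counts were 15 and 4, and without replicate 8 they were 17 and 3. Some of the 23, such as Slc2a2 and Slc27a2, had no count in any endothelial or erythroid library. They reached the count limit through double positive libraries alone. The count of 23 is thus partly set by the choice of members and is a description only. Visceral endoderm markers summed to 90608 and 90673 CPM in the same libraries as the 23, with Sox17 alone lower than in endothelial libraries. Mesenchyme markers were high there too (348 and 325 CPM against 3.39 to 6.51 in endothelial and 0 to 0.326 in erythroid libraries). They were led by collagen genes, with Pdgfra, Pdgfrb and Wt1 under 3 CPM. The part of either in these levels was not tested.

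Sugar and lipid uptake was represented among the 23 by carriers of absorbing epithelia. Slc2a2, the glucose carrier of liver, gut and kidney, had no count in any endothelial or erythroid library and was at 118 and 96.5 CPM in double positive ones. It was at least 716-fold higher than in endothelial libraries (edgeR adjusted p = 6.32e-04) and at least 378-fold higher than in erythroid ones (3.34e-04). Members at 0 in all endothelial and erythroid libraries passed the count limit through double positive libraries alone. Their folds and p-values, here and below, are description only. Slc27a2, which brings in and activates long fatty acids, was at 0 in the same 6 libraries and at 129 and 107 CPM in double positive ones, at least 785-fold above endothelial libraries (adjusted p = 5.40e-04). Slc2a3, a glucose carrier of high affinity, was not absent elsewhere: it was at 5.81, 11.2 and 18.2 CPM in endothelial, at 3.72, 13.0 and 12.4 CPM in erythroid and at 198 and 113 CPM in double positive libraries, with log2 differences of 3.73 ± 0.59 and 4.02 ± 0.61 (adjusted p = 0.00295 and 0.00101). Slc2a1 was at 373 and 163 CPM in double positive libraries, apart from each other, and overlapped with both other groups.

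Organic ion carriers known from kidney and liver followed. Slc22a2, a carrier of organic cations, was at 66.2 and 43.6 CPM and Slc22a8, one of organic anions, at 55.2 and 37.7 CPM in double positive libraries, and both were at 0 in the other 6. Slc13a3, which takes up dicarboxylates with sodium, was at 38.6 and 23.8 CPM with 0 elsewhere, and its call against endothelial libraries was lost without replicate 7 (edgeR adjusted p = 0.068). The sulfate carrier Slc13a4 was at 115 and 86.1 CPM, with 0.977 CPM in erythroid replicate 6 and 0 in the other 5 libraries. Slc22a18 was at 87.8 and 68.0 CPM against 0.528 to 8.71 in endothelial libraries, a difference of 4.39 ± 0.99 on the log2 scale (edgeR adjusted p = 0.0230). That call was lost without endothelial replicate 2 or double positive replicate 7 or 8 (adjusted p = 0.074, 0.12 and 0.092). The lactate carrier Slc16a1 was at 141 and 109 CPM, above the endothelial libraries but without passing (edgeR adjusted p = 0.0547). None of the 7 members of its family passed in that comparison, and their median log2 difference was 1.47.

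Some zinc carriers known from absorbing cells were high in double positive libraries. Of the 11 Slc39 members, 3 were higher and 1 was lower than in endothelial libraries, and 7 did not pass. Among all genes tested, 14.6% were higher and 6.92% lower. The median log2 difference of the 11 was -0.37, beside 0.06 for all genes, so the family as a whole did not rise. Slc39a4, the main importer of dietary zinc, was at 200 and 182 CPM, with 0 in all endothelial libraries and 0, 1.90 and 0 CPM in erythroid ones. It was at least 1271-fold above the endothelial level (edgeR adjusted p = 5.82e-04). Slc39a5 was at 88.4 and 106 CPM with a single count in endothelial replicate 2, so its ratio to endothelial libraries was 1929 with a 95% counting interval of 345 to 76260. The zinc exporter Slc30a1 was at 36.1 and 27.3 CPM against 9.77, 5.21 and 4.36 in endothelial libraries, and that call was lost without double positive replicate 7 or 8 or endothelial replicate 2 or 3 (edgeR adjusted p = 0.24, 0.14, 0.071 and 0.080). Slc31a1 was at 231 and 247 CPM, above erythroid libraries by 2.40 ± 0.31 on the log2 scale (adjusted p = 4.07e-04) and not past the test against endothelial ones (0.0899).

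Among amino acid and amine carriers, Slc7a9, the cystine and cationic amino acid carrier of kidney and gut, was the highest of its class per kilobase in double positive libraries. It was at 290 and 307 CPM there, at 4.49, 0 and 9.04 in endothelial libraries and at 0 in erythroid ones (log2 difference to endothelial 6.04 ± 0.99, edgeR adjusted p = 0.00728). With DESeq2 that call was lost (adjusted p = 0.060). Slc6a13, a carrier of GABA and taurine, was at 47.0 and 24.6 CPM and the serotonin carrier Slc6a4 at 22.0 and 25.4 CPM, both with 0 in the other 6 libraries. Their calls against endothelial libraries were lost without replicate 7 (adjusted p = 0.065 and 0.063), and that of Slc6a4 also without replicate 8 (0.081). With DESeq2 Slc6a13 passed in neither comparison (adjusted p = 0.067 against endothelial and 0.063 against erythroid libraries). Of the vitamin and choline carriers, Slc44a4 was at 104 and 107 CPM with 0.528, 0 and 0 in endothelial and 0 in erythroid libraries. Slc23a1, which takes up vitamin C with sodium, was at 65.1 and 76.1 CPM, and Slc23a3 of the same family was at 38.4 and 29.1 CPM with 0 in the other 6 libraries. The call of Slc23a3 against endothelial libraries was lost without replicate 7 (adjusted p = 0.053), and that of Slc23a1 against erythroid ones without replicate 8 (0.064).

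Members that are present everywhere also rose. Mitochondrial carriers had 10 members higher and 0 lower than in endothelial libraries in edgeR's test, beside 14.6% higher and 6.92% lower among all genes. Scaled by library size alone these were 7 and 1, and Slc25a5, Slc25a11 and Slc25a38 lost their calls. Each of these genes also lost its call without double positive replicate 8. Slc25a11 lost it with RLE factors (edgeR adjusted p = 0.066) and without any one endothelial replicate (0.062 to 0.065). Slc25a5 lost it without endothelial replicate 1 or 3 (edgeR adjusted p = 0.061 and 0.058). Slc25a3, which brings phosphate into mitochondria for ATP synthesis, was at 345, 369 and 331 CPM in endothelial libraries, at 402, 410 and 421 CPM in erythroid ones and at 807 and 939 CPM in double positive ones. Its log2 differences were 1.33 ± 0.13 (adjusted p = 1.93e-04) and 1.09 ± 0.13 (2.43e-04). Slc25a4 was 2.61-fold above endothelial libraries (adjusted p = 0.00368) and 126-fold above erythroid ones (2.36e-06). Slc25a17, a carrier of peroxisomes, was at 182 and 203 CPM against 53.9, 39.2 and 26.1 in endothelial libraries (edgeR adjusted p = 0.00191).

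The 5 members below both populations were Slc29a1, Slc43a3, Slc48a1, Slc35a4 and Slc46a3. Slc29a1 was at 18.3 and 17.9 CPM in double positive libraries, under the lowest endothelial value of 79.1 and the lowest erythroid value of 188. It fell by 2.19 ± 0.21 against endothelial and by 3.61 ± 0.23 against erythroid libraries on the log2 scale (edgeR adjusted p = 2.08e-04 and 1.10e-05). Slc43a3 was at 44.3 and 46.6 CPM and Slc48a1 at 8.40 and 7.73 CPM, both with calls that held without any single library. Slc35a4 was at 51.0 and 61.3 CPM, and its call against endothelial libraries was lost without replicate 7 or 8 (adjusted p = 0.16 and 0.081), as was that against erythroid libraries without replicate 7 (0.095) and when scaled by library size alone (log2 difference -0.18, adjusted p = 0.593). For the lysosomal carrier Slc46a3 (7.45 and 12.6 CPM against 39.9, 40.2 and 40.3 in endothelial libraries) both calls were lost without replicate 7 (0.14 and 0.18) or 8 (0.052 and 0.051), and that against erythroid libraries also without erythroid replicate 6 (0.056). The latter was lost as well when scaled by library size alone (log2 difference -0.63, adjusted p = 0.238), with limma-voom (0.051) and with only the populations compared (0.054). So the place of Slc35a4 and Slc46a3 below both populations depends on the scaling.

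Several endothelial members fell in double positive libraries as well. Slc38a4 was at 13.4 and 34.8 CPM (log2 difference to endothelial libraries -2.51 ± 0.50, edgeR adjusted p = 0.0149) and Slc44a2 at 9.74 and 20.2 CPM (-2.69 ± 0.53, adjusted p = 0.00859), and both calls were lost without replicate 7 (0.064 and 0.077). Slc9a9, at 1.91 and 2.65 CPM, was 15.9-fold lower than in endothelial libraries (adjusted p = 0.0106), a call lost without replicate 7 or 8 (0.097 and 0.079). The vesicular monoamine carrier Slc18a2 was at 4.58 and 8.34 CPM against 29.2, 24.9 and 62.8 (adjusted p = 0.0140, and 0.13 or 0.056 without replicate 7 or 8). Markers of other cell types were lower in the same comparison. The 12 macrophage markers summed to 103 and 161 CPM in double positive libraries against 1399 to 3485 in endothelial ones, and 11 of the 12 were called lower. The 6 megakaryocyte markers summed to 4.96 and 58.6 CPM against 503 to 935, led there by Pf4, and of 5 tested Pf4 and Itga2b were called lower. Their part in these falls was not tested. Other endothelial members stayed near the endothelial level with groups that overlapped, such as Slc38a1 at 38.0 and 21.8 CPM, Slc38a7 at 39.1 and 35.0 CPM and Slc43a2 at 52.1 and 34.8 CPM, all at 0 in erythroid libraries. The 22 members lower in erythroid libraries and at 0 there had double positive means of 6.23% to 6627% of their endothelial means, with a median of 97.7%. The 10 endothelial markers were at 7.01% to 24.4% of theirs, with a median of 11.6%.

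Carriers of the erythroid side were present in double positive libraries. The 18 members higher in erythroid than in both other populations were chosen in part by a lower double positive level. A mean below the erythroid one was thus fixed by the choice. Not all of the 23 members higher in erythroid than in endothelial libraries are among them. The double positive means of the 18 were 2.71% to 48.1% of the erythroid mean, with a median of 11.9%. For the 10 erythroid markers that share ran from 3.77% to 11.8%, with a median of 6.43%. Slc6a9 (2.71%) lay under the range of the markers, and Slc22a4, Slc38a5 and Slc43a1 were among the members within it. Slc25a39 was at 212 and 233 CPM in double positive libraries, above the endothelial ones by 1.13 ± 0.13 on the log2 scale (edgeR adjusted p = 4.90e-04) and below the erythroid ones by 1.88 ± 0.14 (2.21e-05). Slc39a8 was at 153 and 123 CPM, between both groups and apart from both (log2 differences 1.93 ± 0.20 and -2.77 ± 0.23, adjusted p = 3.62e-04 and 3.94e-05).

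**Figure D5:**
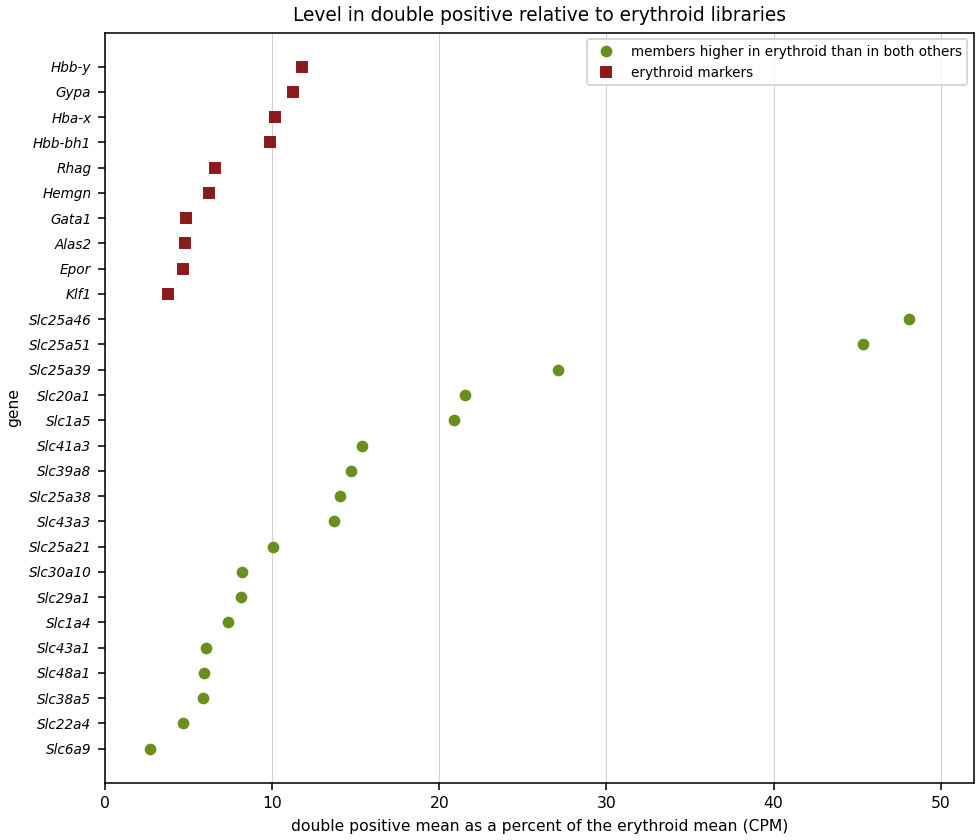
Double positive mean as a percent of the erythroid mean (horizontal axis, from 0) for the 18 members higher in erythroid than in both other populations and for 10 erythroid markers (vertical axis). The markers lie between 3.77% and 11.8%, and the members between 2.71% and 48.1%.

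Carriers that bear other symbols and the partners of solute carriers give the setting of the members. Of 26 tested genes of carriers under other symbols, edgeR called 8 higher and 6 lower in the erythroid against endothelial comparison (median log2 difference -0.75; 14.4% and 26.6% of all genes), 9 and 2 in double positive against endothelial (1.09; 14.6% and 6.92%), and 8 and 4 in double positive against erythroid (1.43; 31.5% and 10.6%). The 6 lower in the first and the 8 higher in the third are near those shares. Scaled by library size alone these were 4 and 14, 7 and 3, and 14 and 4. Rhd, of the Rh ammonium carrier family, was at 0, 0.163 and 0 CPM in endothelial and at 1230.2, 1271 and 1371 CPM in erythroid libraries, and Ucp2, a mitochondrial relative of the Slc25 family, was at 114, 157 and 101 CPM and at 1311, 1425 and 1501 (edgeR adjusted p = 9.30e-06). The sphingosine-1-phosphate exporter Mfsd2b was at 0, 0.651 and 1.61 CPM and at 129, 196 and 177.

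Of 22 tested partners and pumps, edgeR called 9 higher and 6 lower in the erythroid against endothelial comparison, 11 and 3 in double positive against endothelial, and 8 and 10 in double positive against erythroid libraries, and by library size alone 7 and 9, 9 and 3, and 12 and 6. Beside the same shares of all genes, the 6 lower in the first and the 8 higher in the third are again near the background. The chaperones of lactate carriers parted: Bsg was at 367, 300 and 306 CPM in endothelial and at 871, 927 and 858 in erythroid libraries (log2 difference 1.45, but -0.10 when scaled by library size alone), while Emb was at 39.996, 97.6 and 48.1 CPM and at 0. The sodium pump subunits did too, with Atp1b2 at 68.4, 63.4 and 97.1 CPM in erythroid and 0 in endothelial libraries and Atp1b1 at 118 and 125 CPM in double positive libraries against 0.132 to 0.651 in endothelial ones. Folr1, the folate receptor of absorbing epithelia, was at 346 and 381 CPM in double positive libraries, with 0.132, 0 and 0 CPM in endothelial and 0 in erythroid libraries.

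Slc7a5, Slc3a2, Slc1a4 and Slc38a2 are known targets of ATF4, the factor that answers a shortage of amino acids. Of 16 tested genes of that response outside the members, edgeR called 6 higher and 1 lower in the erythroid against endothelial comparison (median log2 difference 0.82), 3 and 0 in double positive against endothelial (0.40), and 5 and 7 in double positive against erythroid (-0.78). Beside the same shares of all genes, the 3 and the 5 higher in the comparisons with double positive libraries are near the background. Scaled by library size alone these were 3 and 7, 3 and 1, and 6 and 2. Atf4 was at 72.1, 82.5 and 106 CPM in endothelial and at 190, 193 and 210 in erythroid libraries (log2 difference 1.19, edgeR adjusted p = 7.38e-04, but -0.35 when scaled by library size alone). Asns, which makes asparagine, was at 25.7, 30.6 and 12.9 CPM and at 341, 406 and 283. The serine synthesis gene Psat1 was highest in double positive libraries instead. It was at 486 and 408 CPM there against 44.7, 81.4 and 26.0 in endothelial and 47.7, 27.6 and 49.8 in erythroid libraries. Psph, of the same synthesis, was at 178 and 173 CPM in double positive libraries. Values of the other genes of this list are not given here.

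A group of 45 members passed in none of the 3 comparisons. Besides Slc2a1, Slc3a2, Slc16a1 and Slc19a1 it held Slc35a1, which brings CMP-sialic acid into the Golgi, at 22.6 to 37.6 CPM in endothelial libraries, at 19.9 to 39.1 CPM in erythroid ones and at 48.9 and 46.4 CPM in double positive ones. Slc9a8 was at 6.51 to 8.07 CPM in endothelial libraries, at 12.4 to 17.9 CPM in erythroid ones and at 11.3 and 10.4 CPM in double positive ones. A p that missed the threshold does not show that levels were alike, with 2 or 3 pools per group.

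Of the 57 genes named by rule, 13 share exon bases with another annotated gene, in each case one on the other strand, among them Slc6a9, Slc25a21, Slc30a10, Slc20a1 and Slc29a1. Of the genes added after their values were seen, Slc7a7 shares exon bases with Oxa1l and Slc37a2 with Gm48081 on the other strand, and Slc5a3 shares them on its own strand with Mrps6 and Gm49711. Reads in the bases Slc5a3 shares cannot be assigned to one gene whatever the strand setting. The strand setting of the counting is not given in the sources used here, so reads of such pairs cannot be told apart.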

How the data were processed

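RNA of 8 pools of 24 or 25 sorted cells was amplified by Smart-seq2 with 14 PCR cycles, per the labels' protocols. The deposited table holds raw read counts per gene symbol, without scaling. The submitters' processing notes name HTSeq, FastQC and the build mm10; tool versions, aligner, annotation and strandedness were not given in the sources used here. Such reads carry no molecular identifiers, so counting intervals and floors cover counting error only.

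Counts were tested with edgeR 4.0.16 (R 4.3.3; filterByExpr minimum count 10, 12136 genes, all 142 members among them, TMM factors, robust quasi-likelihood fit over 8 libraries with 1 mean per population). The common biological coefficient of variation was 0.541. Calls use a two-sided Benjamini-Hochberg adjusted p under 0.05 over all genes tested. Folds against a group at 0 use 3 counts over that group, and those against 1 to 3 counts carry a 95% counting interval. Exon lengths and positions came from GENCODE M21 (GRCm38), promoter windows from RefSeq (GRCm38.p6). No 2 libraries were identical.

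Named were, in each comparison, the 8 largest rises and falls among called members with 20 CPM or more and no overlap, the highest member per kilobase of each class and population, up to 8 members above or below both, and a list of well known carriers; Slc7a6, Slc7a7, Slc25a3, Slc25a17, Slc5a3, Slc6a4, Slc23a1, Slc11a1, Slc37a2 and Slc45a4 were added after their values were seen. Members, classes and lists were chosen with earlier results of these data known. Alternatives were DESeq2 1.42.0, limma-voom (limma 3.58.1), RLE factors, scaling by library size alone, removal of globin genes, no count filter, a filter at 50 counts, a fit on the compared populations alone, and each library left out. Flvcr1, Flvcr2 and Ankh of the carrier list were not analysed here.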

Additional observations from a re-analysis of the deposited data

How the results depend on the processing

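Scaling by library size alone, which leaves the globin share in place, moved the most calls in both comparisons that use erythroid libraries (10 lost and 40 gained beside endothelial ones, 10 and 27 beside double positive ones). For double positive against endothelial libraries leaving out double positive replicate 7 moved more (21 lost, 1 gained), as did limma-voom (1 and 19), than library size alone (6 and 8). Under it, members higher in erythroid than in endothelial libraries became 11 and lower 84, members lower in double positive libraries became 22 against endothelial and 14 against erythroid ones. The erythroid against endothelial log2 differences then turned negative for Slc16a1 (-0.64), Slc25a5 (-1.04), Slc29a1 (-0.12), Slc2a1 (-1.46), Slc3a2 (-1.26) and Slc43a3 (-0.49). Slc2a1 also turned with DESeq2 and with RLE factors (-0.10 each) and with only the populations compared (-0.062), and with a library left out it ran from -0.20 (without endothelial replicate 2) to 0.36. With each library left out in turn, members called higher and lower ran from 20 to 25 and 37 to 43 for erythroid against endothelial, from 24 to 35 and 4 to 15 for double positive against endothelial, and from 46 to 63 and 15 to 21 for double positive against erythroid libraries. Where that leaves 1 double positive library, it is assumed to vary like the other groups. Members above both populations numbered 15 to 36 over all settings and members below both 3 to 6. No paired analysis was possible because the groups share no replicate numbers. With 2 or 3 pools per group and members of low count, small differences are beyond this design.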

Other observations

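Of the 184 solute carrier rows under the limit of 200 counts, 117 had a count in a double positive library, 69 in an endothelial and 26 in an erythroid one. Counts in one population alone were seen for 53 of these rows in double positive, 11 in endothelial and 1 in erythroid libraries. Over all genes, too, double positive libraries detected the most and erythroid libraries the fewest. The limit was set on the sum of 3 endothelial, 3 erythroid and 2 double positive libraries, so these are values with no test. Rows that the symbol rule does not take were 27 of other subfamily letters and 15 of the Slco family.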
